A study of Arabidopsis thaliana with 12 samples.

Results

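Genes encoded in the chloroplast genome were described across 12 Affymetrix arrays of dark-grown Arabidopsis thaliana seedlings. The members are the probe sets annotated to 1 gene with a chloroplast locus tag, and there are 69 of them, for 69 different genes, among 13436 probe sets of the array that name 1 gene with a locus tag. The reference annotation lists 84 such chloroplast genes. Another 8 probe sets name both copies of a gene in the inverted repeat and are no members, among them those for ndhB, rps7 and ycf1. By gene symbol, 5 members were assigned to photosystem I, 15 to photosystem II, and 6 each to the cytochrome b6f complex and the ATP synthase. The NDH complex was given 10, the small ribosomal subunit 8, the large 7 and the plastid RNA polymerase 4, and 8 members have other functions. A gene assigned in this way need not code for a subunit.

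All seedlings were grown for 3 days in darkness on 0.5x MS medium, and RNA came from whole seedlings. Each of 6 groups has 2 arrays. The groups are the wild type Col-0 without compound, the mutant eto1-4 without compound, and seedlings of eto1-4 that were exposed to 9393, 9370, 7303 or AVG, each at 10 µM, so that every treated group carries the eto1-4 allele and no treated wild type was measured. In eto1-4 a protein that holds back ACC synthase is defective and the seedlings make too much ethylene. AVG is aminoethoxyvinylglycine, an inhibitor of ACC synthase, and the other 3 compounds are known here by their codes, as antagonists of ethylene. The comparisons ask how the mutation and each compound shift the chloroplast transcripts.

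The chloroplast genome keeps a small set of the genes of its bacterial ancestor, and most of its products work beside subunits encoded in the nucleus. Its genes are transcribed by a bacterial-type polymerase, whose core subunits are the products of rpoA, rpoB, rpoC1 and rpoC2, and by phage-type polymerases encoded in the nucleus. Many are transcribed together as operons and cut apart afterwards. A seedling in the dark holds etioplasts, the precursors of chloroplasts, in which plastid genes are already transcribed. Plastid transcripts carry no stable poly-A tail, and a tail added to them marks them for decay, so their signal on an array labelled from poly-A priming depends on more than their amount. The labels name the standard Affymetrix labelling and give no more on how these transcripts were primed.

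Values are MAS5 signals, a linear intensity per probe set that was scaled to the same trimmed mean of 500 on every array. Values for a pair of arrays are given in the order of the replicate numbers in the labels. Signals of different probe sets are not compared. Differences are on the log2(signal + offset) scale with an offset of 22.4, so that a value of 1 is a doubling, and dim genes are understated. Tests are from a limma fit over all arrays with p adjusted over 14830 probe sets by the Benjamini-Hochberg method, and a gene is called at an adjusted p under 0.05. Nothing in the labels ties the 2 arrays of a group to separate cultures, so p-values measure the spread between these arrays alone. Of the 69 chloroplast genes, 68 passed the filter on dim signals, and rpoB, at 40.1 to 108, did not.

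The arrays fall into 2 sets that the labels do not name. The poly-A control RNAs added before labelling gave a median signal of 3.77 to 5.95 on 4 arrays, the replicate 1 arrays of Col-0, eto1-4, 9393 and 9370, and of 43.5 to 81.6 on the other 8. These are called the unspiked and the spiked arrays. All 4 arrays with 7303 or AVG are spiked. Col-0, eto1-4, 9393 and 9370 each hold 1 array of each set. In the fit over all arrays the spread within these groups thus includes any difference between the sets. The ratio of 3′ to 5′ GAPDH signal, a sign of RNA or labelling quality, was 1.60 to 2.02 where no spike RNA was seen and 1.18 to 1.53 where it was. Within the spiked set the control RNAs gave 53.1 to 81.6 on the 6 treated arrays and 43.5 to 46.6 on the 2 untreated ones. The 25S ribosomal RNA probe set read 208 and 266 in Col-0 and between 494 and 12724 on the other 10 arrays. The part of these properties in the results below was not tested. Of 4 markers of dark-grown tissue 1 was measured. This is PORB, an enzyme that etiolated seedlings use to make chlorophyllide in light, and it gave 4136 to 15950.0. Of 5 root markers 2 were measured, and PYK10 gave 14113 to 21112 and EXPA7 87.1 to 441.

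Most chloroplast genes were lower on treated than on untreated arrays of the spiked set. In the unspiked set most were higher with 9393 or 9370 than in untreated eto1-4, while the median member signal of 2721 with 9393 lay below that of 2889 in Col-0. They made up 1.97% and 2.24% of all signal on the spiked arrays of untreated eto1-4 and Col-0, and 1.26% to 1.56% on the 6 spiked treated arrays. On the unspiked arrays they made up 1.90% and 2.16% without compound and 2.19% to 2.26% with 9393 or 9370. For 48 of the 68 tested genes every one of the 6 spiked treated arrays lay below both spiked untreated arrays, where 15% of all tested probe sets did so, and for 0 they lay above, against 14.8%. For 33 genes both unspiked treated arrays lay above both unspiked untreated arrays, against 19.4% of all probe sets, and for rpl22 alone they lay below, against 26.1%. These sets of arrays were compared after the data were seen. With whole seedlings, less plastid RNA per cell and a smaller share of plastid-rich tissue cannot be told apart. Whether the labelling of these arrays had a part in the differences was not tested.

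**Figure D1:**
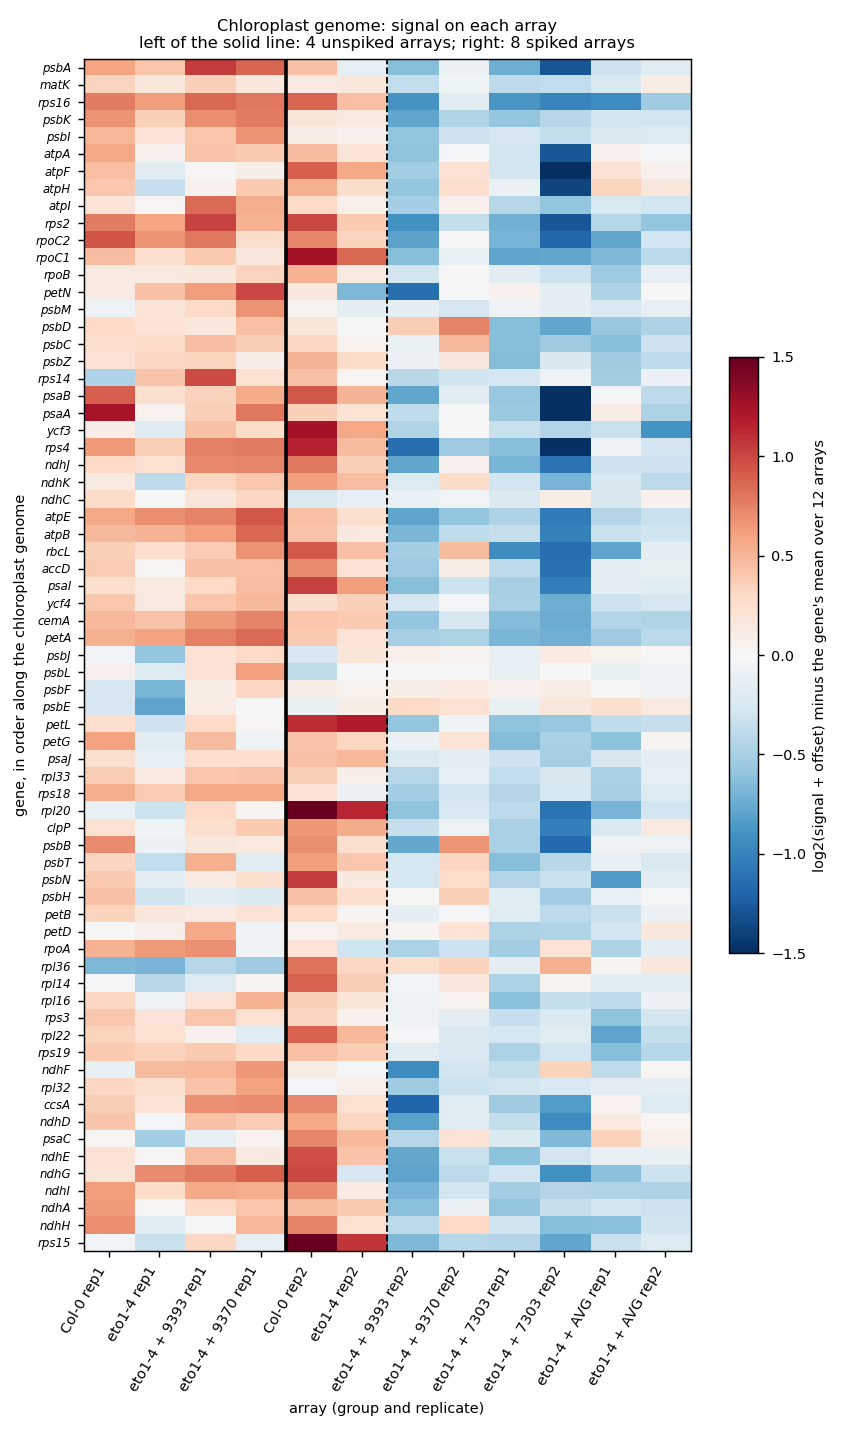
Signals of the 69 chloroplast genes (rows, in order along the chloroplast genome) on the 12 arrays (columns, unspiked arrays left of the solid line, spiked treated arrays right of the dashed line), drawn as log2(signal + offset) minus the gene's mean over all arrays. The columns of the 9393, 7303 and AVG seedlings on spiked arrays are mostly below the mean, and those of the 4 unspiked arrays and of the 2 spiked untreated arrays are mostly above it.

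Between the mutant and the wild type 0 of 68 chloroplast genes were called by limma, where 2.2% of all probe sets were called, and 2 genes had an unadjusted p under 0.05, against 16.8% of all probe sets. The median difference was -0.26 on the log2 scale, with 62 genes lower in eto1-4, beside a median of -0.03 over all tested probe sets. It was -0.16 without the spiked Col-0 array, and -0.38 to -0.16 over the fits with 1 array left out. The direction was alike in both sets: the median was -0.25 between the unspiked arrays, with 56 of 69 genes lower, and -0.26 between the spiked arrays, with 59 lower. In 25 genes both eto1-4 arrays lay below both Col-0 arrays, against 27.2% of all probe sets. For photosystem I the psaA signal, for 1 of the paired core proteins that bind the reaction centre, was 2193 and 1188 in Col-0 and 954 and 1065 in eto1-4. The groups did not overlap for psaA, and the replicates of the wild type differed by more than those of the mutant.

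The clearest differences from untreated eto1-4 were in seedlings grown with 7303. There 61 of 68 chloroplast genes were lower, the median difference was -0.68 beside -0.05 over all tested probe sets, and the quartiles of the genes were -1.01 and -0.41. By limma 2 genes fell, psbD and rbcL, and 0 rose, where 4.69% of all probe sets were called in either direction and 1.72% as lower. The 2 genes are 2.94% of the members, a share near those backgrounds. An unadjusted p under 0.05 was reached by 31 of the 68, against 23.7% of all probe sets. In 53 genes both 7303 arrays lay below both untreated eto1-4 arrays, against 32.8% of all probe sets. Since the spiked set holds 1 untreated eto1-4 array, the same comparison within that set sets 2 arrays against 1, and there 63 of 69 genes were lower with a median of -0.83.

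The gene rbcL encodes the large subunit of Rubisco, the enzyme that fixes carbon dioxide. Its signals were 1367 and 2022 in Col-0, 1269 and 1439 in untreated eto1-4, 1382 and 738 with 9393, 1708 and 1482 with 9370, 545 and 468 with 7303, and 602 and 963 with AVG. Both 7303 arrays lay below the other 10. The mean was 506 ± 54.1 (SD, n = 2) with 7303 and 1354 ± 121 (SD, n = 2) in untreated eto1-4, a log2 difference of -1.38 ± 0.32 (SE) with a limma adjusted p of 0.0420. Within the spiked set alone it was -1.47 ± 0.28, with an adjusted p of 0.0476. With 1 array left out the call was lost without either Col-0, either untreated eto1-4 or either 7303 array, at differences of -1.49 to -1.28 and limma adjusted p of 0.0596 to 0.223.

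The gene psbD encodes the D2 protein of the photosystem II reaction centre. Its signals were 1199.6 and 1102 in Col-0, 1132 and 969 in untreated eto1-4, 1085 and 1262 with 9393, 1332 and 1637 with 9370, 614 and 556 with 7303, and 647 and 699 with AVG. All 4 arrays with 7303 or AVG lay below the other 8, and the highest value was the spiked 9370 array. With 7303 the log2 difference from eto1-4 was -0.82 ± 0.18 with a limma adjusted p of 0.0369, and with AVG it was -0.62 with an adjusted p of 0.0725. With 9370 it was 0.49 ± 0.18 with an adjusted p of 0.157. Within the spiked set the 7303 difference of psbD was -0.71, with an adjusted p of 0.0607. With 1 array left out the psbD call was lost without either Col-0, 7303 or AVG array or without the unspiked eto1-4 array, at differences of -0.89 to -0.71 and limma adjusted p of 0.0584 to 0.224.

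With AVG, too, 61 of 68 chloroplast genes were lower than in untreated eto1-4. The median difference was -0.40 beside -0.04 over all tested probe sets, and the quartiles were -0.64 and -0.19. By limma 1 gene fell, rpl22, and 0 rose, where 5.32% of all probe sets were called in either direction and 2.37% as lower. An unadjusted p under 0.05 was reached by 11 of the 68, against 24% of all probe sets. In 42 genes both AVG arrays lay below both eto1-4 arrays, against 30.1% of all probe sets. Against Col-0 the median difference was -1.01 with 7303 and -0.71 with AVG. No chloroplast gene was called with 7303 against Col-0, where the lowest limma adjusted p was 0.0516. With AVG 8 chloroplast genes fell against Col-0, where 4.8% of all probe sets were called as lower. They were the ribosomal genes rpl22, rps19 and rps3, the photosystem II genes psbD, psbN and psbZ, the NDH gene ndhH and the polymerase gene rpoC1, at differences of -1.40 to -0.75 and limma adjusted p of 0.0196 to 0.0456.

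The gene rpl22 encodes a protein of the large ribosomal subunit and stands next to rps19 and rps3 on the chloroplast chromosome. Its signals were 6325 and 9274 in Col-0, 5880 and 7046 in untreated eto1-4, 5239 and 4916 with 9393, 4392 and 4306 with 9370, 4174 and 4391 with 7303, and 2881 and 3884 with AVG. All 8 treated arrays lay below all 4 untreated ones, in the unspiked set as well as in the spiked set. The log2 difference from untreated eto1-4 was -0.94 ± 0.22 with AVG, with a limma adjusted p of 0.0422. It was -0.59 with 7303, -0.56 with 9370 and -0.34 with 9393, at limma adjusted p of 0.153, 0.182 and 0.525. With 1 array left out the call with AVG was lost without either untreated eto1-4, 7303 or AVG array, at differences of -1.15 to -0.73 and limma adjusted p of 0.0654 to 0.317.

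With 9393 and with 9370 the pair of arrays of each group is split between the sets, and the sets gave opposite signs. The fit over all arrays called 0 of 68 chloroplast genes in either comparison, where 0.661% of all probe sets were called with 9393 and 4.05% with 9370. At an unadjusted p under 0.05 the numbers were 0 and 3 genes, against 15.5% and 21.6% of all probe sets. The median differences from that fit were -0.21 with 9393 and -0.02 with 9370, and each averages arrays of opposite sign. On the unspiked arrays 66 of 69 genes were higher with 9393 than without, with a median of 0.27, and 59 were higher with 9370, with a median of 0.32. In the spiked set 63 were lower with 9393, with a median of -0.66, and 54 were lower with 9370, with a median of -0.21. The medians over all tested probe sets lay between -0.04 and 0.05 in each of the 8 comparisons within a set. Those of 9393, of 9370 and of eto1-4 with Col-0 set 1 array against 1 and have no replicate check. Those of 7303 and AVG set 2 arrays against 1.

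**Figure D2:**
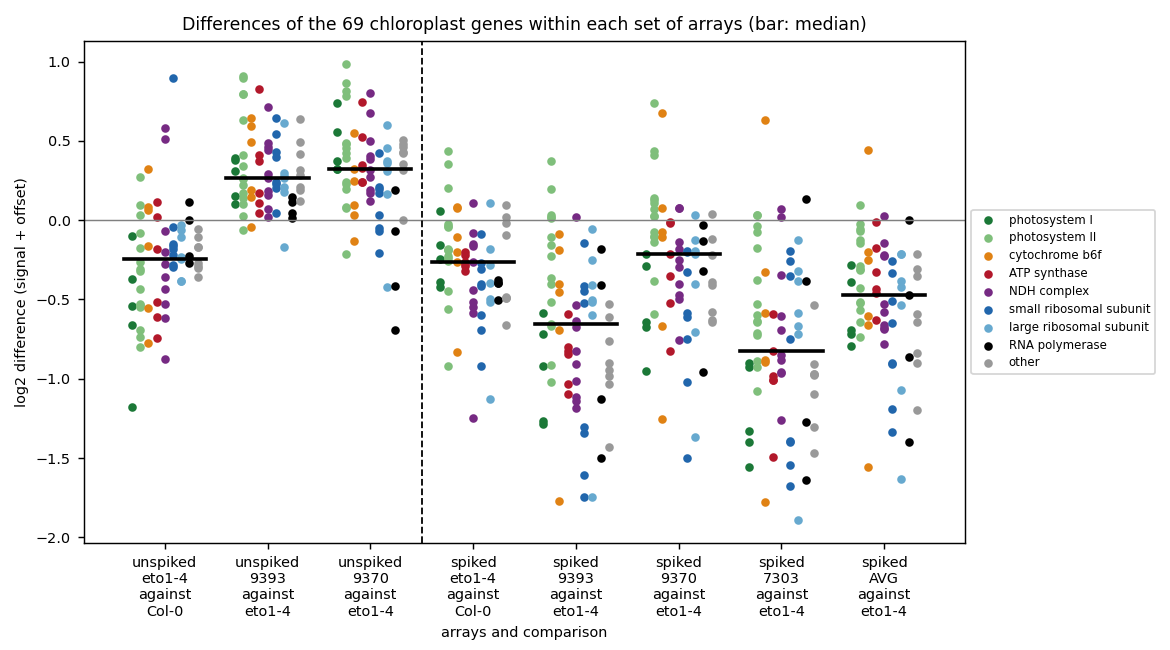
Log2 differences of the 69 chloroplast genes between arrays of the same set, 1 point a gene and coloured by complex, with a bar at the median. The medians of 9393 and 9370 are 0.27 and 0.32 on the unspiked arrays (left of the dashed line) and -0.66 and -0.21 on the spiked arrays, and the spiked 7303 and AVG medians are -0.83 and -0.47.

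The same split showed between replicates of 1 group. The median of replicate 2 minus replicate 1 over the 69 genes was -0.89 with 9393, with 64 genes lower, and -0.39 with 9370, with 55 genes lower. In the untreated groups, whose replicates are split in the same way, it was 0.10 for Col-0 and 0.14 for eto1-4. In the groups with both arrays in the spiked set it was -0.11 for 7303 and 0.10 for AVG. The median gap within the 9393 pair was larger than the median difference of any of the 4 treatments from untreated eto1-4 in the fit over all arrays.

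A fit to the 8 spiked arrays alone, with 2 residual degrees of freedom that come from the 7303 and AVG pairs, called more chloroplast genes, and all of them as lower. It called 15 of 68 with 7303, where 4.97% of all probe sets were called, 9 with AVG against 7.01%, 3 with 9393 against 1.07% and 2 with 9370 against 3.91%. Between eto1-4 and Col-0 it called 0, against 1.36%. Against Col-0 it called 42 with 7303, where 11.4% of all probe sets were called, 31 with AVG against 17.7%, 15 with 9393 against 2.6% and 7 with 9370 against 3.76%. The untreated groups, 9393 and 9370 each enter this fit with 1 array, whose spread is assumed to be that of the 7303 and AVG pairs. The genes petL and rps15 were called in all 4 comparisons of a treatment with eto1-4, which share the untreated eto1-4 array.

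The gene petL, for a small subunit of the cytochrome b6f complex that passes electrons between the photosystems, read 1466 and 2683 in Col-0 and 989.6 and 2837 in untreated eto1-4. With compound it read 1504 and 815 with 9393, 1245 and 1177 with 9370, 799.9 and 823 with 7303, and 938 and 963 with AVG. The 2 spiked untreated arrays stand above all others for petL, and the unspiked eto1-4 array lies among the treated ones. Within the spiked set the log2 differences were -1.78 with 7303, -1.77 with 9393, -1.56 with AVG and -1.25 with 9370, at adjusted p of 0.00738 to 0.0262 in the limma fit to those arrays.

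The gene rps15, for a protein of the small ribosomal subunit, gave 506 and 2134 in Col-0 and 408 and 1118 in untreated eto1-4. It gave 652 and 318 with 9393, 476 and 381 with 9370, 379 and 294 with 7303, and 407 and 450.5 with AVG. Here, too, the spiked untreated arrays alone were high, and the unspiked untreated arrays lay within the range of the treated ones. For rpl20, of the large ribosomal subunit, the untreated arrays read 379 and 2035 in Col-0 and 319 and 921 in eto1-4, and the 8 treated arrays 176 to 501. For these 3 genes the difference in the spiked set thus rests on high spiked untreated arrays.

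**Figure D3:**
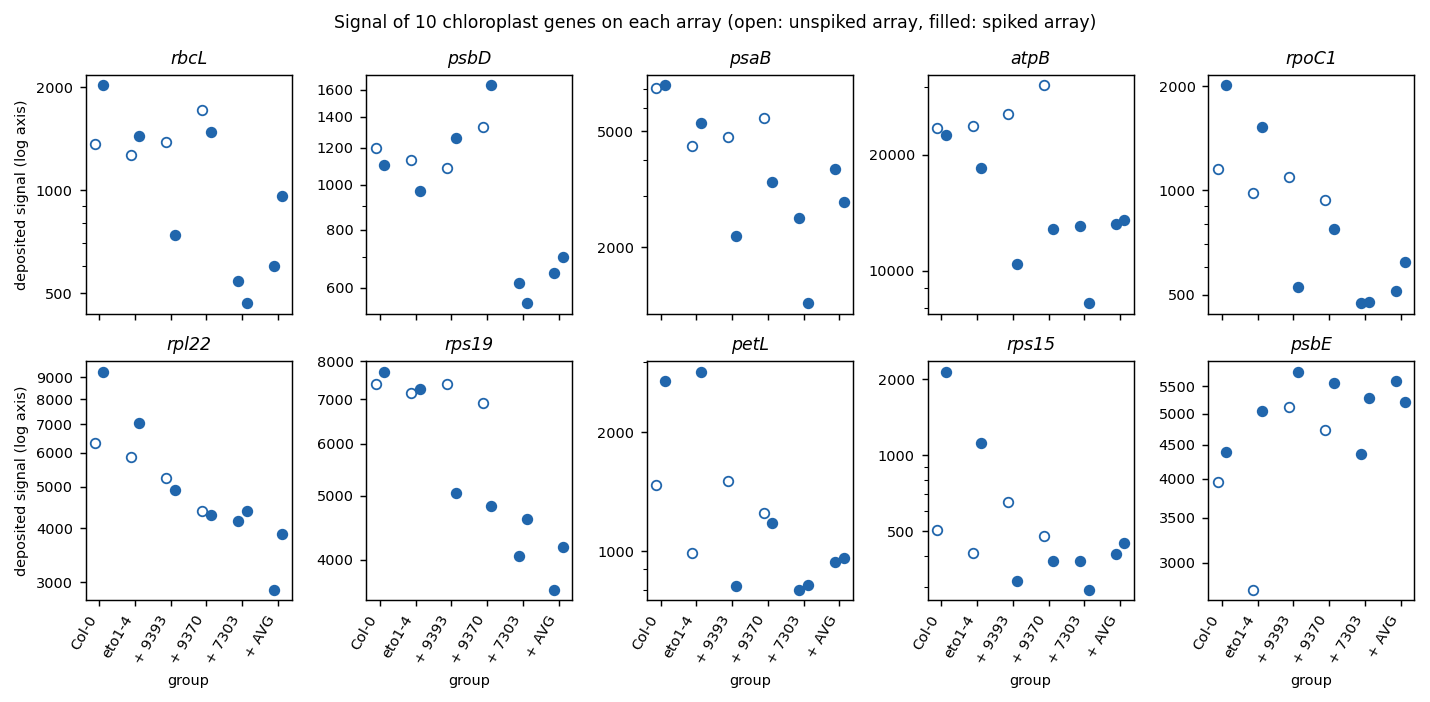
Deposited signals on a log axis of 10 chloroplast genes on each of the 12 arrays, by group, with open and filled circles for the unspiked and spiked arrays. In psbD, rbcL and rpl22 both arrays of the called group lie below both untreated eto1-4 arrays, and in atpB the 2 unspiked treated arrays, at 25610.3 and 30291, lie above the untreated arrays and the 6 spiked treated ones, at 8247 to 13563, below them.

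By complex, photosystem I had the lowest median with 7303 among the photosynthetic complexes. All 5 of its genes were lower than in untreated eto1-4, with a median of -1.16, and none was called. The gene psaB, for the partner of the psaA protein in the reaction centre, read 7034 and 7195 in Col-0, 4450 and 5365 in untreated eto1-4, 4780 and 2185 with 9393, 5568 and 3354 with 9370, 2526 and 1288 with 7303, and 3706 and 2858 with AVG. The 6 spiked treated arrays lay below both spiked untreated ones for psaB and for the other 4 genes of the complex, psaA, psaC, psaI and psaJ. In the spiked set the median over the 5 genes was -1.33 with 7303, -0.92 with 9393, -0.69 with AVG and -0.64 with 9370. In the unspiked set it was 0.31 with 9393 and 0.37 with 9370.

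Photosystem II, which splits water, had the smallest share of its genes lower on all spiked treated arrays among the 9 groups of genes. For 4 of its 15 genes all 6 spiked treated arrays lay below both spiked untreated ones, against 44 of the 53 tested genes of the other groups. With 7303 its median difference from eto1-4 was -0.44, with 11 of 15 lower and psbD called. The gene psbA, for the D1 protein that light damages and that is replaced throughout the day, read 944 and 850.1 in Col-0, 834 and 570 in untreated eto1-4, and 365 and 242 with 7303. With AVG psbA read 495 and 546, and the spiked 9370 array, at 581, lay above the spiked untreated eto1-4 array. The gene psbZ, for a small subunit at the edge of the core, had the values 5444 and 5308 in untreated eto1-4, 2777 and 3698 with 7303, and 3026 and 3332 with AVG. Its differences were -0.74 with 7303 and -0.76 with AVG, at limma adjusted p of 0.0757 and 0.0670.

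The genes psbE and psbF, for the subunits of cytochrome b559, and their neighbours psbL and psbJ did not follow most others on the spiked arrays. Treated and untreated spiked arrays overlapped in other genes as well, such as psbM, ndhC, rpl36 and rpoA. The psbE signals were 3962 and 4381 in Col-0, 2734 and 5048 in untreated eto1-4, 5119 and 5777 with 9393, 4728 and 5558 with 9370, 4361 and 5280.0 with 7303, and 5608 and 5207 with AVG. The lowest of these is the unspiked untreated eto1-4 array, and the treated arrays overlap with the spiked untreated ones. The psbF signals were 6947 and 8808 in Col-0, 5134 and 8560 in untreated eto1-4, and 7974 to 10206 on the 8 treated arrays. Among spiked arrays the 4 genes differed from eto1-4 by -0.18 to 0.03 with 7303 and by -0.10 to 0.19 with 9393. On the unspiked arrays they were higher by 0.79 to 0.99 with 9370 and by 0.41 to 0.90 with 9393. By limma none of the 4 was called in any of the 5 main comparisons.

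The cytochrome b6f genes had a median of -0.60 with 7303 and -0.34 with AVG, with 5 and 6 of 6 genes lower and none called. The gene petA, for cytochrome f, read 11662 and 8750.4 in untreated eto1-4, 12925 and 5408 with 9393, 13874 and 5491 with 9370, 4748 and 4636 with 7303, and 5279 and 5789 with AVG. The 6 spiked treated arrays of petA lay at 4636 to 5789, and the 2 unspiked treated arrays lay above both untreated eto1-4 arrays. The gene petB, for cytochrome b6, moved less, from 12036 and 10988 in eto1-4 to 9410.3 and 8123 with 7303.

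The ATP synthase, which makes ATP from the proton gradient of the thylakoid, has its plastid genes in 2 places of the chloroplast chromosome. The genes atpB and atpE, for the beta and epsilon subunits, overlap in sequence. The atpB signals were 23457 and 22527 in Col-0, 23763 and 18437 in untreated eto1-4, 25610.3 and 10408 with 9393, 30291 and 12812 with 9370, 13102 and 8247 with 7303, and 13267 and 13563 with AVG. The 6 spiked treated arrays lay below all 4 untreated ones, and the 2 unspiked treated arrays above them. Differences from eto1-4 were -1.01 ± 0.46 with 7303 and -0.64 ± 0.46 with AVG, at limma adjusted p of 0.215 and 0.427. The atpE differences were -1.23 ± 0.53 and -0.85 ± 0.53, at adjusted p of 0.194 and 0.359. The gene psbM, for a small subunit of photosystem II, gave 24302 and 19235 in untreated eto1-4, 20154 and 19269 with 7303, and 18218 and 19578 with AVG, at differences of -0.13 and -0.19 and adjusted p of 0.801 and 0.706.

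The genes atpI, atpH, atpF and atpA, for the membrane subunits and the alpha subunit, lie behind rps2 in a second unit. With 7303 the unit differed from eto1-4 on the spiked arrays by -1.49 to -0.59, with AVG by -0.90 to -0.01. The atpF signals were 2001 and 3340 in untreated eto1-4, 1848 and 740 with 7303, and 2605 and 2336 with AVG. The arrays with 7303 differed among themselves by more than those with AVG, and the first of them lay close to the lower untreated array.

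The NDH complex carries electrons around photosystem I. With 7303 its genes had a median of -0.67, with 9 of 10 lower, and with AVG of -0.44, with 10 of 10 lower, and by limma none was called. The gene ndhI, for an iron-sulfur subunit, read 12221 and 12933 in Col-0, 9528 and 8624 in untreated eto1-4, 11686 and 4863 with 9393, 11506 and 6506 with 9370, 5518 and 5799 with 7303, and 5792 and 5724 with AVG. All 6 spiked treated arrays lay below the untreated ones for ndhI, and the 2 unspiked treated arrays lay between eto1-4 and Col-0. In ndhC, by contrast, untreated eto1-4 read 6479 and 5968 and the 6 spiked treated arrays 5467 to 7027, so that the groups overlapped. The gene ndhH was lower in eto1-4, at 177 and 241, than in Col-0, at 343 and 354, without overlap.

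The 15 ribosomal protein genes had medians with 7303 of -0.86 for the small and -0.41 for the large subunit. All 8 genes of the small subunit were lower than in untreated eto1-4 with 7303 and with AVG, and their groups did not overlap between spiked treated and spiked untreated arrays. The gene rps4 read 6113 and 8766 in Col-0, 5020 and 5426 in untreated eto1-4, 2492 and 1369 with 7303, and 3725 and 3195 with AVG. Its spiked arrays with 9393 and 9370 read 1770 and 2668 and its unspiked ones 6628 and 6730. The rps19 signals were 7160.4 and 7262 in untreated eto1-4, 4044 and 4614 with 7303, and 3603 and 4173 with AVG. Its differences were -0.74 and -0.89, at limma adjusted p of 0.0974 and 0.0544. Of the large subunit, rpl36 read 2239 and 4558 in untreated eto1-4 and 3308 to 5289 on the spiked treated arrays, with no separation.

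Of the 3 tested genes of the plastid RNA polymerase 2 separated the spiked treated from the spiked untreated arrays. The rpoC1 signals, for a part of the catalytic core, were 1155 and 2012 in Col-0, 986 and 1524 in untreated eto1-4, 1095 and 526 with 9393, 941 and 774 with 9370, 473 and 477 with 7303, and 512 and 622 with AVG. All 8 treated arrays except the unspiked one with 9393 lay below both untreated eto1-4 arrays. The differences were -1.33 ± 0.36 with 7303, -1.09 ± 0.36 with AVG, -0.67 ± 0.36 with 9393 and -0.51 ± 0.36 with 9370, at limma adjusted p of 0.0657, 0.103, 0.417 and 0.461. In the fit to the spiked arrays rpoC1 was called with 7303, AVG and 9393. The rpoC2 signals were 649 and 505 in untreated eto1-4, 236 and 163 with 7303, and 223 and 320.5 with AVG, again without overlap. The rpoA gene did not separate: untreated eto1-4 gave 8361 and 4371 and the spiked treated arrays 3720 to 6207.

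Of the 8 genes of other function, 7 had all 6 spiked treated arrays below both spiked untreated ones. The clpP gene, for the catalytic subunit of a plastid protease, read 3399 and 5226 in untreated eto1-4, 2541 and 1739 with 7303, and 3029 and 3948 with AVG. The accD gene, for a subunit of the acetyl-CoA carboxylase that starts fatty acid synthesis, read 793 and 913 in untreated eto1-4, 588 and 347 with 7303, and 705 and 720 with AVG. The cemA gene, for an envelope protein, read 9466 and 9250 in untreated eto1-4, 4478 and 4173 with 7303, and 5173 and 5142 with AVG. In these groups the cemA replicates lay close together, but it read 10952.5 and 4671 with 9393 and 11777 and 5917 with 9370. Its differences in the spiked set were -1.09 with 7303 and -0.84 with AVG. In the fit over all arrays they were -1.11 and -0.86 and were not called, at limma adjusted p of 0.119 and 0.206. The matK gene, for an intron maturase, differed less, from 8588 and 8537 in eto1-4 to 5846 and 5936 with 7303.

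Neighbouring genes that land plants transcribe together were set side by side as 13 units, a grouping made after the data were seen. With 7303 on the spiked arrays the unit of psbD, psbC and psbZ was narrow, at -0.72 to -0.64, while that of petL, petG, psaJ, rpl33 and rps18 spanned -1.78 to -0.26. The unit of psaI, ycf4, cemA and petA lay at -1.40 to -0.90, and all 4 of its genes had spiked treated arrays below the spiked untreated ones. The unit of psbE, psbF, psbL and psbJ, at -0.18 to 0.03, had 0 such genes. In the long unit from rps19 to rpoA, 5 of 7 genes had no overlap, and rpl36 and rpoA overlapped. Genes of a unit share a transcript and are no independent points.

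**Figure D4:**
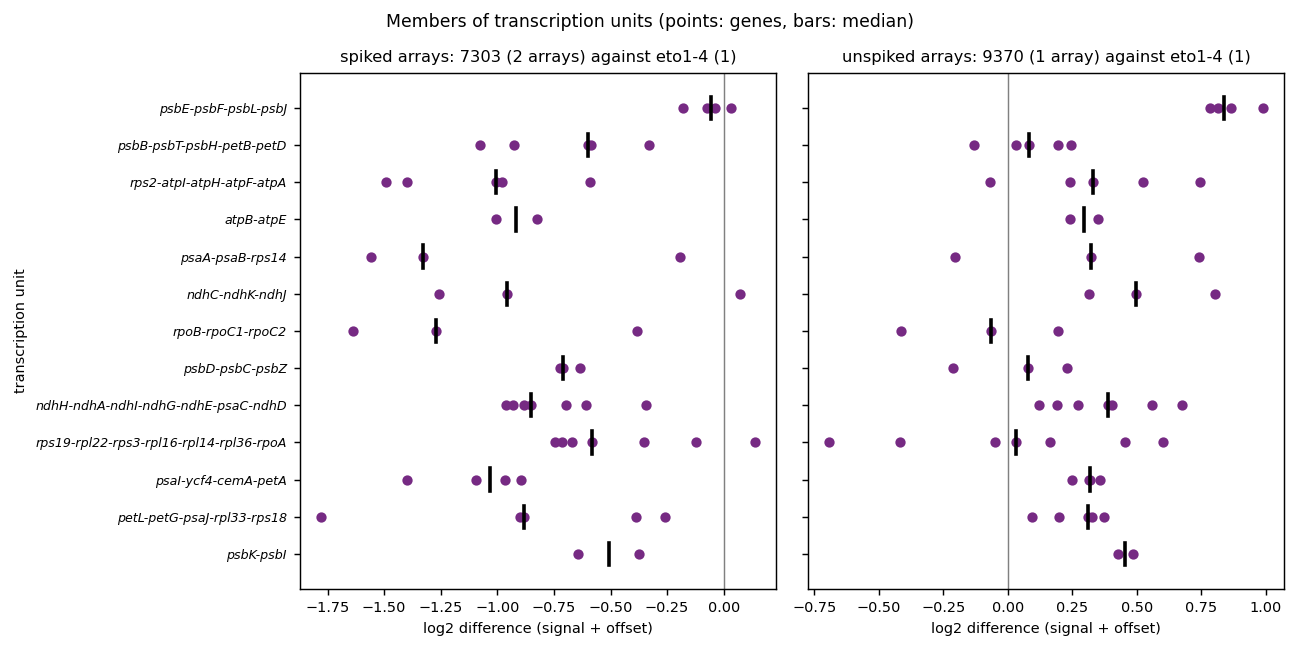
Log2 differences from untreated eto1-4 of the genes in 13 transcription units, 1 point a gene with a bar at the median, for 7303 on spiked arrays (left) and 9370 on unspiked arrays (right). The psbE unit lies at -0.18 to 0.03 with 7303 on the spiked arrays and at 0.79 to 0.99 with 9370 on the unspiked arrays, and the psbD unit lies at -0.72 to -0.64 with 7303.

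The 4 treatments were at the same dose and time, and their 6 pairs were compared. By limma 0 chloroplast genes were called in any pair, where 0% to 0.00674% of all probe sets were called. At an unadjusted p under 0.05 the pair of 9370 and 7303 had 23 of 68 genes, against 6.47% of all probe sets, and that of 9393 and 7303 had 10, against 5.13%. The pair of 9370 and AVG had 8, against 12.9%, and that of 9393 and AVG had 6, against 11.8%. Between 7303 and AVG there were 4, against 3.96%, and between 9393 and 9370 there was 1, against 0.89%. The median difference was largest between 9370 and 7303, at 0.64, with 66 of 68 genes higher with 9370. In that pair rbcL differed by 1.61 with a 95% interval of 0.90 to 2.33, and psbD by 1.31 with an interval of 0.90 to 1.71. The limma adjusted p over all probe sets was 0.647 and 0.429, and adjusted for each gene over the 6 pairs alone it was 0.0031 and 0.0002. Both genes were singled out by their values with 7303, so that the second p is no independent support. In the spiked set rbcL read 1482 with 9370 beside 545 and 468 with 7303, and psbD read 1637 beside 614 and 556.

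Between 7303 and AVG the median was -0.23, with 53 of 68 genes lower with 7303. For psbD the difference was -0.20, with a 95% interval of -0.60 to 0.21, and for rbcL it was -0.57, with an interval of -1.29 to 0.14, so neither sign is settled. Between 9393 and 9370 the median was -0.19, and rbcL differed by -0.64, with an interval of -1.36 to 0.07. Each of these 2 groups holds an unspiked array, and the groups with 7303 and AVG hold none. The part of this in the differences between the treatments was not tested. In the spiked set the median difference between 9393 and 7303 was 0.11 and that between 9370 and 7303 was 0.46.

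Genes of the nucleus whose products join the same complexes shared the chloroplast direction in some comparisons and not in others. Few of them were named on this array. Of the nuclear lists of photosystem, antenna, cytochrome b6f and ATP synthase subunits 8 probe sets were measured, and by limma 0 were called in any of the 5 main comparisons. All 8 were higher with 9393 and with 9370 in both sets: the medians were 0.71 and 0.81 on the unspiked and 0.56 and 0.66 in the spiked set, where the chloroplast medians of the same comparisons were below 0. With 7303 and AVG on the spiked arrays the medians of these 8 were -0.10 and -0.08. In eto1-4 against Col-0 they were -0.60 and -0.42, with 8 and 7 of 8 lower.

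For the other lists, too, limma called 0 probe sets in each of the 5 comparisons. The 8 nuclear genes for plastid ribosomal proteins had medians on the spiked arrays of -0.18 with 7303 and 0.06 with AVG. The 3 nuclear NDH subunits measured had medians of -0.72 with 7303 and -0.64 with AVG in the fit over all arrays, and of -0.44 and -0.36 within the spiked set. PORB had a difference of -1.22 with 7303, at an adjusted p of 0.0700, and of -0.96 with AVG. The 2 root markers had a median of -0.27 with 7303 and -0.50 with AVG. Of the nuclear genes for plastid transcription 1 probe set was named and 0 passed the filter, and of those for plastid RNA processing and decay 0 were named.

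The mitochondrial genome, the other genome whose transcripts carry no stable poly-A tail, was matched by gene symbol after the data were seen. Of its 23 probe sets 6 passed the filter, and by limma 0 were called. In the spiked set their median difference from untreated eto1-4 was -0.79 with 7303, -0.63 with 9393 and -0.41 with AVG, with 6 of 6 lower in each, and -0.42 with 9370, with 5 of 6 lower. On the unspiked arrays it was 0.15 with 9393 and 0.28 with 9370, with 5 and 6 of 6 higher. The chloroplast medians beside these were -0.83, -0.66, -0.47 and -0.21 on the spiked and 0.27 and 0.32 on the unspiked arrays. In eto1-4 against Col-0 the mitochondrial median was 0.06 on the unspiked and -0.17 on the spiked arrays, beside -0.25 and -0.26 for the chloroplast. Relative to the mean over all arrays, the mitochondrial medians were -0.09 and -0.05 on unspiked Col-0 and untreated eto1-4. The chloroplast medians on those arrays were 0.34 and 0.14. Whether the shift in the chloroplast genes belongs to them or to organelle transcripts as a class on these arrays was not tested.

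**Figure D5:**
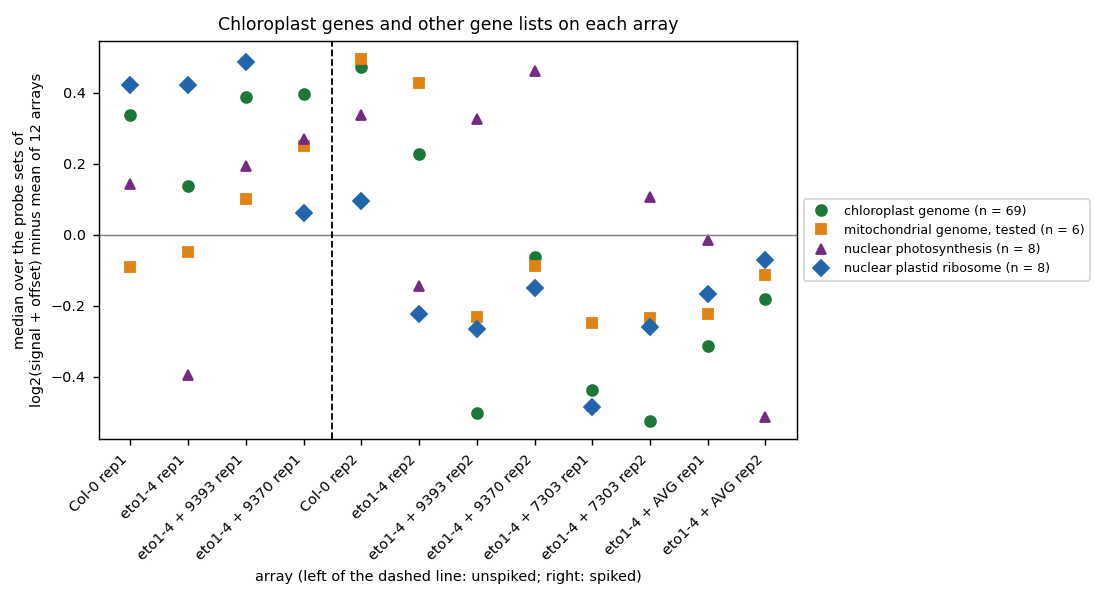
Median over the probe sets of 4 gene lists on each array, as log2(signal + offset) minus each probe set's mean over the 12 arrays, with the unspiked arrays left of the dashed line. The chloroplast and mitochondrial genes lie below 0 on the 6 spiked treated arrays and above 0 on the spiked untreated arrays, while the nuclear photosynthesis genes lie above 0 on the spiked 9393 and 9370 arrays.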

How the data were processed

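The deposited table holds linear signal intensities of 22810 probe sets on 12 arrays, for which the submitters' processing notes name MAS5 with no version. The 2% trimmed mean was 500 on all arrays. No pair of arrays was identical. An offset of 22.4, the 20th percentile of the deposited intensities, was added before log2. Testing was limited to probe sets that exceeded the 40th percentile on 2 or more arrays, without the 64 array controls. limma 3.58.1 under R 4.3.3 fitted 6 group means with an intensity trend (6 residual and 4.07 prior degrees of freedom), with Benjamini-Hochberg adjustment within each of 16 comparisons. The number of arrays limits the precision. The script was tested on simulated data.

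Names come from the platform annotation, matched to locus tags of TAIR10.1. The members, the gene lists and the split by spike RNA were chosen with earlier results of these data known. The genes named by rule are those among the 6 with the lowest p in the 5 main comparisons, which include the 3 called there. Also named by rule are those of the 3 probe sets of highest mean signal. Not all of these are given for every group. Other members, some of them given for every group, were named after their values were seen. Called genes of the lists would have been named. No sequences were used here.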

Additional observations from a re-analysis of the deposited data

How the results depend on the processing

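Alternatives changed the offset, the filter, the scaling, the variance model, the groups in the fit and the arrays. Of 110 median differences recomputed 107 stayed within the replicate spread of 0.28. The main medians of -0.26 for eto1-4 against Col-0, -0.21 with 9393 and -0.02 with 9370 are smaller in size than that spread. For these 3 a change of sign can lie within it. For 9393 the median was -0.66 on the spiked arrays and -0.65 to 0.27 with 1 array left out, for 9370 it was -0.25 to 0.25 with 1 left out, and for eto1-4 against Col-0 -0.38 to -0.16. Median centring shifted all probe sets by 0.10 with 7303 and with AVG, and the member medians were then -0.57 and -0.30.

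Members called with 7303 numbered 1 without the filter, 4 with a replicate block, 1 with the spike split as a block, 15 on the spiked arrays, 9 with the compared groups alone, and 0 to 11 with 1 array left out, 11 without either 9393 array. With AVG they numbered 0 without the filter, 2 after quantile normalization, 0 after median centring, 2 with a replicate block, 9 on the spiked arrays, and 0 to 5 with 1 left out, 5 without either 9393 array. On the spiked arrays 3 were called with 9393 and 2 with 9370. Leaving out either untreated eto1-4 array left 0 or 1 with 7303 and 0 with AVG. Over 22 alternatives psbD was called with 7303 in 13, rbcL with 7303 in 14 and rpl22 with AVG in 13, each with a negative difference throughout, and limma adjusted p of 0.0297 to 0.224, 0.0200 to 0.223 and 0.0232 to 0.317. The cause was not tested. Same-numbered arrays did not deviate together in all groups: the correlation of deviations from group means was above 0.1 in 5 of 15 pairs of groups. All 5 lay among the 6 pairs of Col-0, eto1-4, 9393 and 9370, where replicate 1 is unspiked and replicate 2 spiked, at 0.026 to 0.78. The other 9 pairs lay at -0.27 to 0.090.

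Differences that changed sign were uncalled. In eto1-4 against Col-0 median centring gave 0.015 for rps19, 0.0075 for psbZ and 0.036 for atpE. For psbM the value was 0.00 with AVG after quantile normalization, 0.062 with 7303 and 0.00098 with AVG under the spike block, and -0.19 in eto1-4 against Col-0, -0.10 with 9370 and 0.035 with 7303 on the spiked arrays. With 1 array left out, eto1-4 against Col-0 ranged from -0.13 to 0.21 for psbM, -0.32 to 0.048 for atpB, -0.27 to 0.18 for atpE, -0.22 to 0.075 for psbZ, -0.53 to 0.025 for rpl22 and -0.70 to 0.085 for rpoC1. With 9393 the ranges were -0.15 to 0.27 for psbM, -1.01 to 0.29 for atpB, -1.26 to 0.27 for atpE, -0.38 to 0.046 for psbZ, -0.85 to 0.032 for rbcL and -0.51 to 0.033 for rps19. With 9370 they were -0.71 to 0.53 for atpB, -1.05 to 0.47 for atpE and -0.27 to 0.65 for psbM, and with 7303 -0.30 to 0.035 for psbM.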

Other observations

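The 8 probe sets that name both inverted-repeat copies of a chloroplast gene were not among the members. On the spiked arrays all 8 were lower with 9393, 9370 and AVG than in untreated eto1-4, with medians of -0.57, -0.32 and -0.44, and 6 of 8 were lower with 7303, with a median of -0.84. On the unspiked arrays 8 of 8 were higher with 9393, with a median of 0.41, and 7 of 8 with 9370, with a median of 0.35. The rps7 probe set, for a protein of the small ribosomal subunit, read 9650.4 and 9040.3 in Col-0, 7532 and 6460.2 in untreated eto1-4, 11138 and 1991 with 9393, 11710 and 2772 with 9370, 2849 and 1499 with 7303, and 4061 and 3180 with AVG. All 6 of its spiked treated arrays lay below the 4 untreated ones. The rpl2 probe set, for a protein of the large ribosomal subunit, differed little, from 17998 and 15682 in eto1-4 to 16072 and 15411 with 7303.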
